A study of Mus musculus with 6 samples.

Results

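The genes described here are 34 keratins, junction components and related genes of epithelial cells, read in whole mouse palates that lacked Frizzled 1 and Frizzled 2 and in palates that lacked Frizzled 1 alone. The set was a list of gene symbols, and its members were all probe sets that the platform annotation gives to a listed gene and to no other. All 34 genes were found, by 61 of the 45037 probe sets tested, out of 18193 genes with such a probe set. The palates called double-null here were Fz1-/-; Fz2-/- (3 samples), and the palates they were set against, called Fz1-null, were Fz1-/-; Fz2+/+ (3 samples). Both groups were embryos of embryonic stage E13.5, of mixed gender on a mixed C57BL6/129 background, both lacked Fz1, and the design held no wild-type palates. The labels do not say how many embryos or litters a sample holds, so p-values here measure only how these samples vary, and some of that may be technical. RNA of each sample was read on its own Affymetrix Mouse430_2 array, and the number of arrays limits the precision.

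Keratins are the intermediate filament proteins of epithelia, and each filament pairs a type I with a type II keratin. Desmosomes tie the keratin networks of neighbouring cells together, cadherins form the adhesion belts beside them, and claudins seal the space between cells. At this stage the palatal shelves are a core of neural crest mesenchyme under a thin oral epithelium with a basal layer and a flat surface layer, the periderm. Frizzled proteins are Wnt receptors, and the question was which transcripts differ when Fz2 is missing as well.

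Transcripts of Fzd2 were lower in the double-null samples, as checked with the replicate block. Its brightest probe set read 10.21, 10.53 and 10.20 on the log2 scale in double-null samples 1 to 3, against 11.46, 11.60 and 11.64 in Fz1-null samples 1 to 3, a difference of -1.25 (SE 0.11, limma adjusted p = 0.217, and 0.00889 with the replicate number as a block). Among members, 27 of 34 lay at or above the median of all probe set means (7.24), beside 11409 of 18193 genes. These values carry no call of presence. Where the probes of Fzd2 lie relative to the deleted part is not known here. Samples that carry the same replicate number deviated together, so differences within the pairs numbered 1, 2 and 3 are given throughout. Double-null sample 3 stood apart by its array values and its muscle transcripts. With array weights in limma its weight was 0.60, against 0.95 to 1.25 for the other arrays. The SD of its probe set values was 1.99, against 2.03 to 2.06. The summed level of 15 skeletal muscle markers was 13.90 there on the log2 scale, 12.93 and 12.91 in the other double-null samples, and 13.10 to 13.16 in the Fz1-null samples. Medians of the gene lists are therefore also given without its pair, by the fit with the replicate block.

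No member passed the test of genotype, and most members read lower in double-null palates. By the probe set with the highest mean, 30 of 34 genes lay lower and 4 higher, beside 54.3% lower among all genes measured. Their median log2 difference was -0.11 (range -0.37 to 0.15), beside -0.01 over all genes. Most basal keratins and the desmosome gene Dsp were the farthest from 0, at 1.27-fold to 1.29-fold lower for Krt14, Krt5, Krt17 and Dsp. With limma and Benjamini-Hochberg adjustment over all probe sets, 0 of 61 member probe sets passed an adjusted p of 0.05 (smallest adjusted p = 1.00), as did 0.00% of all probe sets. Unadjusted p lay under 0.05 for 2 member probe sets, 1 of Krt14 and 1 of Dsp, beside 0.957% of all probe sets. For 0 of 34 genes were the 3 double-null values all below or all above the 3 Fz1-null values, beside 4.65% of all genes.

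With the replicate number as a block, 7 of the 34 genes had an unadjusted p under 0.05 and all of these were lower, namely Krt14, Krt17, Cdh1, Dsp, Dsg2, Dsc3 and Lad1, beside 4.12% of all genes in either direction and 1.54% in the lower direction. The smallest adjusted p among members was then 0.966, and 0 of 61 passed, beside 0.00666% of all probe sets. The members also varied more from sample to sample than most transcripts did. The median range over the 6 arrays was 0.59 for member probe sets and 0.31 over all probe sets, and the median SE of a difference was 0.14 against 0.10.

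**Figure D1:**
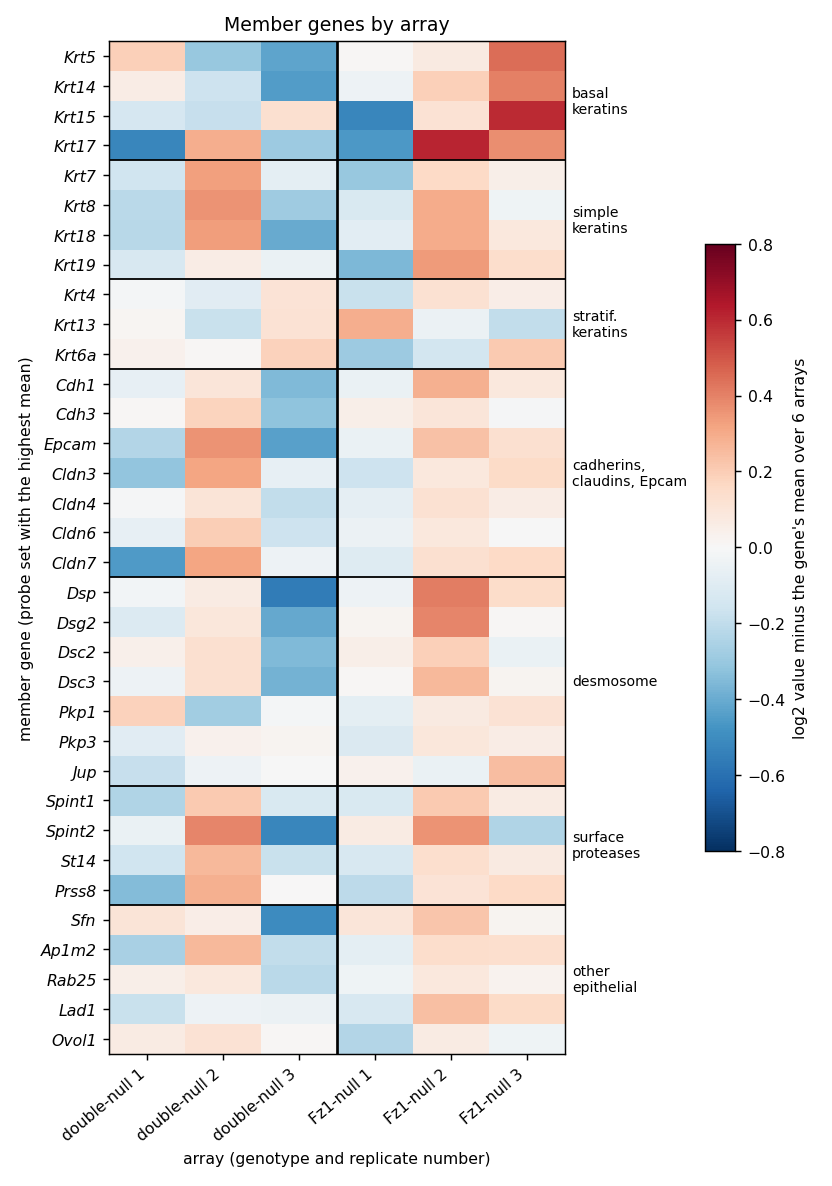
Log2 value of each member gene on each array minus the gene's mean over 6 arrays, with the 3 double-null arrays left of the 3 Fz1-null arrays and horizontal lines between role groups. The replicate 2 columns are red for most simple keratins, claudins and proteases in both genotypes, and the double-null 3 column is blue for most genes outside the stratification keratins.

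The sample pairs differed in how the members lay. In the pair numbered 3, 31 of 34 genes were lower in the double-null sample, with a median of -0.25, beside 53.1% of all genes lower in that pair. In the pairs numbered 1 and 2 the counts were 20 and 17 of 34 and the medians -0.02 and -0.01, beside 51.4% and 51.8% of all genes. Double-null sample 3 was the lowest of the 6 arrays for 17 of 34 genes, beside 26.9% of all genes. A replicate 2 array, of either genotype, was the highest for 27 of 34, beside 28.7%. Without the pair numbered 3 the median of the 34 genes was -0.03 by the block fit. Leaving out single arrays gave -0.05 without double-null sample 3, -0.21 without double-null sample 2, -0.06 without Fz1-null sample 2 and -0.18 without Fz1-null sample 1. In whole palates, fewer epithelial cells and less RNA per epithelial cell cannot be told apart.

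Promoter sequence is shown for 4 members that stand for these patterns. Krt5 and Krt14 read lower in the pairs numbered 2 and 3, and Krt18 and Epcam were highest in the replicate 2 samples. RefSeq promoters of build GRCm38.p6 (250 bases before to 50 after the gene start) were found for 19 of the 34 genes, 21 promoters in all. Capitals mark CAGGTG or CACCTG, the same E-box read on either strand, to which the ZEB and SNAI repressors of epithelial genes are known to bind.
Krt5, chr15:101712856-101713155, minus strand: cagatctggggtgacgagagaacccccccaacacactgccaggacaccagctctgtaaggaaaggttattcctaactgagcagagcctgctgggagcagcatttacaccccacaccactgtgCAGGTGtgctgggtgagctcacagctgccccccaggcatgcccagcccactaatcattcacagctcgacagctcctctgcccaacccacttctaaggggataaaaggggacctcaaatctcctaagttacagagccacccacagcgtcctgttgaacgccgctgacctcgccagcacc
Krt14, chr11:100205981-100206280, minus strand: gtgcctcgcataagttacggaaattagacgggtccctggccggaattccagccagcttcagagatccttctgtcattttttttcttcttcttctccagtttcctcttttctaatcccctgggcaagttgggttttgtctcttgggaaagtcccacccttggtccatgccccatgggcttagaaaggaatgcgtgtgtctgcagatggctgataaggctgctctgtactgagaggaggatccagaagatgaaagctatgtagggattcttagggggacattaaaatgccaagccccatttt
Krt18, chr15:102027966-102028265, plus strand: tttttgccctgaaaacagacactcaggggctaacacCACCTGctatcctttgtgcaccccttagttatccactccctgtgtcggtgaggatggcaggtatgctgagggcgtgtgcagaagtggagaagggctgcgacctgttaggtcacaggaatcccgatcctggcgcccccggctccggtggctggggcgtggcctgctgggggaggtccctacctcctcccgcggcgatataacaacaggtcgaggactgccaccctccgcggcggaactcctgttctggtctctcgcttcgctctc
Epcam, chr17:87635729-87636028, plus strand: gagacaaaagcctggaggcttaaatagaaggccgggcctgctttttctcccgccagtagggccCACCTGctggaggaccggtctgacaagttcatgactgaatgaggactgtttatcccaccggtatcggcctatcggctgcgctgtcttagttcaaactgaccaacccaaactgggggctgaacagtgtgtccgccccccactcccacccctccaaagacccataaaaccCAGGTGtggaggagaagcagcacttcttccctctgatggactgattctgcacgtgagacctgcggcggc
The E-box began 128 bases before the start of Krt5, 214 before that of Krt18, and 187 and 19 before that of Epcam. The printed Krt14 window held none. Whether that window lies at the Krt14 start used in palate epithelium was not checked, so other Krt14 promoter sequence may hold the E-box. It was present in 14 of 21 member promoters (66.7%), beside 20.2% of the 32851 promoters in the table and 20 of 42 promoters (47.6%) of the further epithelial and adhesion genes listed below. CAGCTG, an E-box that differs at the centre, was in 4 of 21 (19.0%), beside 16.3% of all. Median GC content was 60.3% in member promoters and 52.7% in all promoters, so the sets differ in base composition. These matches describe the letters in the windows and are not binding sites. Transcripts of Zeb1 differed by 0.06 (SE 0.09), Zeb2 by -0.32 (SE 0.13), Snai1 by -0.15 (SE 0.15) and Snai2 by -0.06 (SE 0.15). Their part in the epithelial differences was not tested.

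Basal keratins were the role group farthest below 0, with a median log2 difference of -0.35 over 4 of 4 genes that lay lower. Krt5 and Krt14 form the filament of the basal layer. Krt5 read 9.07, 8.58 and 8.46 in double-null samples 1 to 3, against 8.89, 8.95 and 9.33 in Fz1-null samples 1 to 3, a difference of -0.35 (SE 0.18, unadjusted p = 0.0866). Krt14 read 9.20, 8.97 and 8.69 in double-null samples, against 9.10, 9.33 and 9.54 in Fz1-null samples, a difference of -0.37 (SE 0.16, unadjusted p = 0.0474). For both genes the groups overlapped only through replicate 1, where the double-null sample was higher by 0.18 and 0.11. In the pairs numbered 2 and 3 the differences were -0.37 and -0.87 for Krt5 and -0.37 and -0.85 for Krt14. These Krt14 values come from a probe set with the suffix x, which can read other keratins too. A further Krt14 probe set, without that suffix, differed by -0.33 (SE 0.15, limma unadjusted p = 0.0622), while the dimmest differed by 0.07 (SE 0.09).

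Krt15, another basal keratin, read 8.50, 8.45 and 8.76 in double-null samples, against 8.11, 8.75 and 9.23 in Fz1-null samples. Its Fz1-null values spanned both ends of the scale, and the difference of -0.13 (SE 0.25) lay within that spread. Krt17, a keratin of skin appendages and injured epithelium, read 6.68, 7.49 and 6.91 in double-null samples, against 6.74, 7.81 and 7.57 in Fz1-null samples. Although listed here with the basal keratins, Krt17 read highest at replicate 2 in both genotypes, as Krt8 and Krt18 did. It was lower in each of the 3 pairs (differences of -0.06, -0.32 and -0.65), with a mean difference of -0.34 (SE 0.30 without the block and 0.11 with it). The medians of the 4 basal keratins were 0.14, -0.34 and -0.75 in pairs 1 to 3. Without the pair numbered 3, whose double-null sample was high in muscle transcripts, the median was -0.11, without the pair numbered 1 it was -0.55, and with the mean of each gene's probe sets it was -0.22.

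Simple keratins, those of single-layered epithelia, followed the replicate number more than genotype. Krt8 and Krt18, which pair with each other and neighbour each other in the genome, had similar profiles. Krt8 read 9.55, 10.12 and 9.48 in double-null samples, against 9.64, 10.06 and 9.73 in Fz1-null samples, a difference of -0.09 (SE 0.19). Krt18 read 9.09, 9.65 and 8.91 in double-null samples, against 9.23, 9.61 and 9.40 in Fz1-null samples, a difference of -0.20 (SE 0.19). Both replicate 2 samples were the high ones, and the groups overlapped fully. All 3 Krt8 probe sets lay lower, with differences of -0.09 to -0.21.

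Krt7, which pairs with type I simple keratins in ducts and glands, was the exception in direction at 0.06 (SE 0.16), with 7.42, 7.91 and 7.50 in double-null samples, against 7.28, 7.74 and 7.63 in Fz1-null samples. Krt19, a type I keratin without the usual tail, differed by -0.08 (SE 0.17). The pair medians of the 4 simple keratins were 0.03, 0.05 and -0.22, against 0.14, -0.34 and -0.75 for the basal ones, so the groups parted in the pair numbered 2. In that pair 4 of 4 basal and 1 of 4 simple keratins were lower in the double-null sample. In the pair numbered 3 all 8 keratins of both groups were lower, the basal ones by more at the median, so medians of opposite sign were seen in 1 pair only. Without the pair numbered 3 the median of the simple keratins was -0.02, and without Fz1-null sample 2 it turned to 0.05.

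Keratins of stratified oral epithelium lay near 0, with a median of 0.0046 over 3 genes and -0.02 without the pair numbered 3. Krt4 and Krt13 pair in the upper layers of oral mucosa, and Krt6a is a keratin of surface and wound epithelium. Krt4 differed by 0.0046 (SE 0.10), with 7.20, 7.13 and 7.33 in double-null samples, against 7.04, 7.34 and 7.27 in Fz1-null samples, and its sign turned to -0.0016 with arrays centred on their medians, to -0.0014 with repeated quantile normalisation and to -0.03 with array weights. Krt13 read 5.13, 4.94 and 5.23 in double-null samples, against 5.41, 5.07 and 4.92 in Fz1-null samples. It was dim at 5.10 ± 0.15 in double-null and 5.13 ± 0.25 in Fz1-null palates (SD, n = 3 each), at percentile 14.9 of the probe set means, and its sign turned to 0.02 with the mean of its probe sets. The probe sets of Krt6a disagreed, and their mean differed by -0.04. The brightest differed by 0.15 (SE 0.13) with 8.56, 8.54 and 8.71 in double-null samples, against 8.24, 8.38 and 8.74 in Fz1-null samples. Another read 7.91, 6.83 and 7.11 in double-null samples, against 7.50, 7.15 and 7.83 in Fz1-null samples, with pair differences of 0.42, -0.33 and -0.71 that resemble those of Krt5 and Krt14. Keratin paralogs are close in sequence, and probe sets with the suffix x or s can read more than 1 of them.

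**Figure D2:**
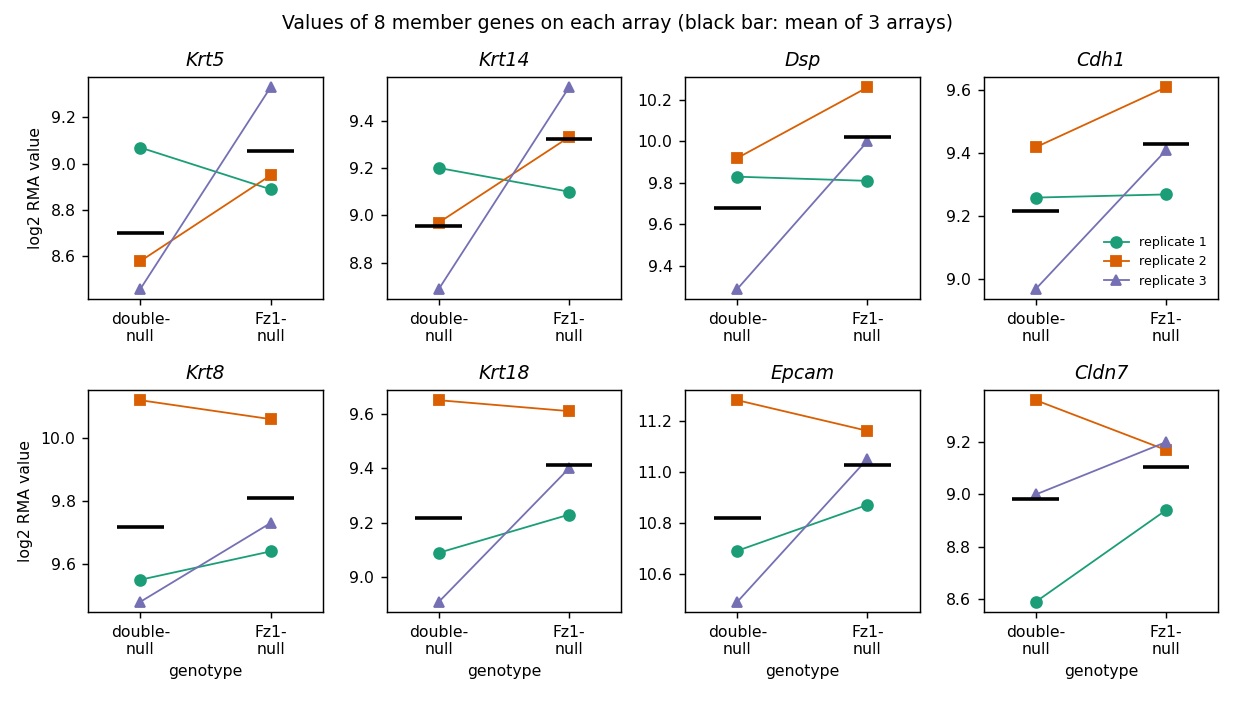
Log2 RMA values of 8 member genes on each array, with double-null left of Fz1-null palates, lines joining samples of 1 replicate number and black bars at the mean of 3 arrays. Krt5 and Krt14 cross over at replicate 1 and lie 0.37 lower in double-null palates at replicate 2, while Krt8, Krt18 and Epcam have both replicate 2 samples at the top.

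Among cadherins, claudins and Epcam 7 of 7 genes lay lower, with a median of -0.09 and pair medians of -0.04, 0.11 and -0.26. Cdh1, the E-cadherin of epithelial adhesion belts, read 9.26, 9.42 and 8.97 in double-null samples, against 9.27, 9.61 and 9.41 in Fz1-null samples. It was lower in each of the 3 pairs (differences of -0.01, -0.19 and -0.43), with a mean difference of -0.21 (SE 0.14). Epcam, a surface protein of epithelial cells, read 10.69, 11.28 and 10.49 in double-null samples, against 10.87, 11.16 and 11.05 in Fz1-null samples, a difference of -0.21 (SE 0.19). Here the highest sample of all 6 was a double-null one. Cldn6, a claudin of embryonic epithelium, differed by -0.02 (SE 0.11), with 9.91, 10.17 and 9.81 in double-null samples, against 9.93, 10.06 and 9.97 in Fz1-null samples, and turned to 0.01 with repeated quantile normalisation and 0.0033 with array weights.

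The other claudins followed the replicate number only in part. Cldn3 and Cldn7 read lowest at replicate 1 in both genotypes, and Cldn4 read highest at replicate 2 in both. Cldn7 read 8.59, 9.36 and 9.00 in double-null samples, against 8.94, 9.17 and 9.20 in Fz1-null samples, so the double-null group held both the lowest and the highest value. Cldn3 differed by -0.05 (SE 0.17) and had pair differences of -0.15, 0.23 and -0.22, with all 4 of its probe sets slightly lower by the mean. Cldn4 differed by -0.07 (SE 0.10), and Cdh3, the P-cadherin of basal cells, by -0.09 (SE 0.13). Without the pair numbered 3 the median of these 7 genes was 0.02.

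Desmosome genes lay lower in 7 of 7 members, with a median of -0.15 pair medians of -0.01, -0.13 and -0.30, and -0.09 without the pair numbered 3. Dsp, desmoplakin, links the desmosome to keratin. It read 9.83, 9.92 and 9.29 in double-null samples, against 9.81, 10.26 and 10.00 in Fz1-null samples, a difference of -0.34 (SE 0.18). The other probe sets of Dsp gave -0.30 (SE 0.15) and -0.40 (SE 0.17), and all 3 were within 0.07 of 0 in the pair numbered 1. Dsg2, a desmosomal cadherin, read 8.06, 8.26 and 7.76 in double-null samples, against 8.19, 8.56 and 8.18 in Fz1-null samples, a difference of -0.28 (SE 0.15). It was lower in each of the 3 pairs (differences of -0.13, -0.30 and -0.42), and the mean of each of its 6 probe sets was lower.

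Dsc2 and Dsc3, the desmocollin partners of Dsg2, differed by -0.12 (SE 0.14) and -0.19 (SE 0.14), both lower in 3 of 3 pairs. Jup, Pkp1 and Pkp3 encode proteins of the plaque inside the cell. Jup, plakoglobin, read 9.63, 9.77 and 9.81 in double-null samples, against 9.85, 9.76 and 10.06 in Fz1-null samples, a difference of -0.15 (SE 0.10). Pkp1, a plakophilin of stratified epithelium, differed by -0.07 (SE 0.12), with 8.93, 8.47 and 8.73 in double-null samples, against 8.67, 8.82 and 8.86 in Fz1-null samples. Pkp3, found in most epithelia, differed by -0.02 (SE 0.09). In the pair numbered 1, Pkp1 was 0.26 higher in the double-null sample, beside 0.39 for Krt15 and 0.18 for Krt5.

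In the pair numbered 3, 4 member genes were at least 1.5-fold lower in the double-null sample, namely Krt5, Krt14, Krt17 and Dsp, beside 0.165% of all genes. With the block and without the pair numbered 1, 5 of 61 member probe sets passed an adjusted p of 0.05 by limma, all lower, beside 0.206% of all probe sets in either direction and 0.104% in the lower direction. These were the Krt5 probe set (-0.62, SE 0.11, adjusted p = 0.0114), 1 of 3 for Krt14 (-0.61, 0.0126), 2 of 3 for Dsp (-0.63, 0.0086 and -0.52, 0.0321) and 1 of 3 for Krt6a (-0.52, 0.0338). That fit rests on 2 pairs, and none of these probe sets passed with all 3. Their pair differences in the pair left out were between 0.02 and 0.42, above 0. The Krt14 probe set that passed has the suffix x, and the next brightest differed by -0.53 (SE 0.12, limma adjusted p = 0.0507) in that fit. For Krt6a the brightest probe set differed there by 0.06 (SE 0.11) and the dimmest by -0.19 (SE 0.10), and neither passed.

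**Figure D3:**
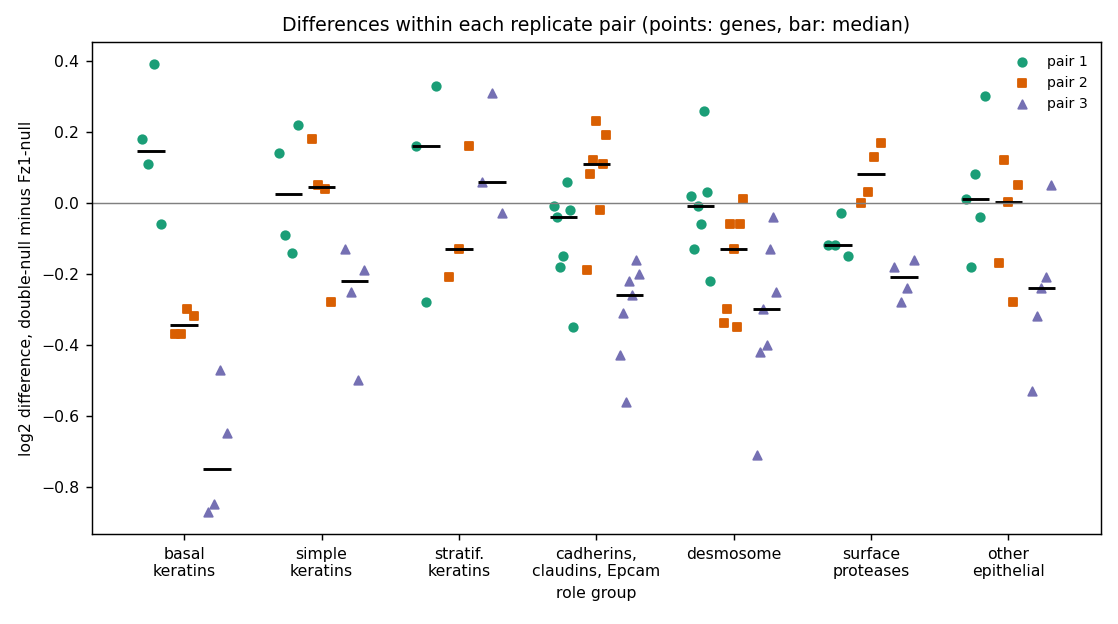
Log2 difference of each member gene within each replicate pair, double-null minus Fz1-null, by role group, with black bars at the medians. Basal keratins lie at a median of -0.34 in pair 2 and -0.75 in pair 3, simple keratins at 0.05 and -0.22.

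Differences in the membrane protease pathway of epithelial surfaces were small. St14 (matriptase) and Prss8 (prostasin) are proteases that act on the cell surface, and Spint1 and Spint2 encode the inhibitors that hold them in check. All 4 lay lower, with a median of -0.07 pair medians of -0.12, 0.08 and -0.21, and -0.02 without the pair numbered 3. Spint2 read 10.30, 10.74 and 9.83 in double-null samples, against 10.42, 10.71 and 10.11 in Fz1-null samples, a difference of -0.12 (SE 0.24). Its samples followed the replicate number closely, and within pairs it differed by -0.12, 0.03 and -0.28. Prss8 read 7.74, 8.37 and 8.09 in double-null samples, against 7.88, 8.20 and 8.25 in Fz1-null samples, a difference of -0.04 (SE 0.17). Spint1 read 7.74, 8.19 and 7.86 in double-null samples, against 7.86, 8.19 and 8.05 in Fz1-null samples, a difference of -0.10 (SE 0.14). St14 differed by -0.05 (SE 0.14), and double-null sample 2 was the highest of the 6 arrays for 4 of 4 of these genes.

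The remaining 5 members had a median of -0.13, and -0.03 without the pair numbered 3. Lad1, ladinin of the basement membrane zone, read 7.87, 8.01 and 8.00 in double-null samples, against 7.92, 8.29 and 8.20 in Fz1-null samples. It was lower in 3 of 3 pairs, a mean difference of -0.18 (SE 0.11), and the value of Fz1-null sample 1 kept the groups from separating. Sfn, the 14-3-3 protein of stratified epithelium, read 7.35, 7.30 and 6.74 in double-null samples, against 7.34, 7.47 and 7.27 in Fz1-null samples, a difference of -0.23 (SE 0.16) that was -0.08 without the pair numbered 3 and -0.03 without double-null sample 3 alone. Ap1m2, an adaptor subunit that sorts proteins to the basolateral membrane, differed by -0.13 (SE 0.15), with 8.57, 9.09 and 8.63 in double-null samples, against 8.75, 8.97 and 8.96 in Fz1-null samples. Rab25, a recycling GTPase of epithelia, read 8.02, 8.06 and 7.76 in double-null samples, against 7.94, 8.06 and 8.00 in Fz1-null samples, a difference of -0.05 (SE 0.10). Ovol1, a zinc finger factor of epithelial differentiation, lay higher in 3 of 3 pairs, with 6.08, 6.13 and 6.02 in double-null samples, against 5.78, 6.08 and 5.98 in Fz1-null samples, a difference of 0.13 (SE 0.09). It was the 1 member gene higher in all pairs, beside 11% of all genes, and 6 of 34 were lower in all pairs, beside 13.9%.

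Further epithelial genes outside the member list were read for comparison, and 46 of 57 measured of 63 listed lay lower, with a median of -0.06. None passed the test, with or without the block. Epithelial transcription and splicing factors lay lower in 12 of 12 measured genes, with a median of -0.21 and pair medians of -0.14, -0.13 and -0.42, and -0.10 without the pair numbered 3. Trp63, the p63 factor of basal cells, read 8.46, 8.24 and 7.71 in double-null samples, against 8.46, 8.54 and 8.41 in Fz1-null samples, a difference of -0.33 (SE 0.18). Elf5, an Ets factor of epithelia, differed by -0.44 (SE 0.23) and was lower in 3 of 3 pairs. Esrp2, an epithelial splicing regulator, differed by -0.22 (SE 0.10), and its groups did not overlap, beside 1.91% of all genes that were lower without overlap. Klf5, a zinc finger factor of proliferating epithelium, differed by -0.05 (SE 0.16).

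Genes that anchor epithelium to the basement membrane lay lower in 10 of 10 measured members, with a median of -0.10, and -0.03 without the pair numbered 3. Col17a1, the transmembrane collagen of hemidesmosomes, read 7.35, 7.13 and 7.08 in double-null samples, against 7.36, 7.85 and 7.87 in Fz1-null samples. The groups did not overlap, although double-null sample 1 lay just 0.01 below its pair, and the difference was -0.51 (SE 0.15, unadjusted p = 0.0107, adjusted p = 1.00 by limma). Dst, a cytolinker of hemidesmosomes, differed by -0.19 (SE 0.12), Frem2, a basement membrane protein, by -0.11 (SE 0.08), and Itga6, the integrin of hemidesmosomes, by -0.03 (SE 0.07).

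Further junction genes lay lower in 15 of 19 measured members, with a median of -0.06 and pair medians of -0.0017, 0.05 and -0.18. Without the pair numbered 3 the median turned to 0.01, and in the pair numbered 2 only 7 of 19 were lower. Cldn8, a claudin, differed by -0.36 (SE 0.16) without overlap between the groups. Perp, a desmosome-associated target of p63, differed by -0.32 (SE 0.17). Within pairs it gave 0.23, -0.37 and -0.82, close to the values of Krt5. Cldn23 differed by -0.25 (SE 0.15), and Cxadr, a receptor at tight junctions, by 0.09 (SE 0.08). Further keratins were split 5 to 5 with a median of 0.01 (0.05 without the pair numbered 3), among them Krt10 (-0.14, SE 0.18), Krt24 (-0.15, SE 0.11), Krt42 (0.05, SE 0.08) and Krt79 (0.19, SE 0.09, higher without overlap beside 2.74% of all genes). Adhesion partners that epithelium shares with other tissues lay near 0, with a median of -0.03 (-0.0017 without the pair numbered 3), among them Ctnnb1 (-0.02, SE 0.09), Ctnna1 (-0.06, SE 0.08), Ctnnd1 (-0.05, SE 0.09) and Vcl (-0.08, SE 0.07, lower without overlap).

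**Figure D4:**
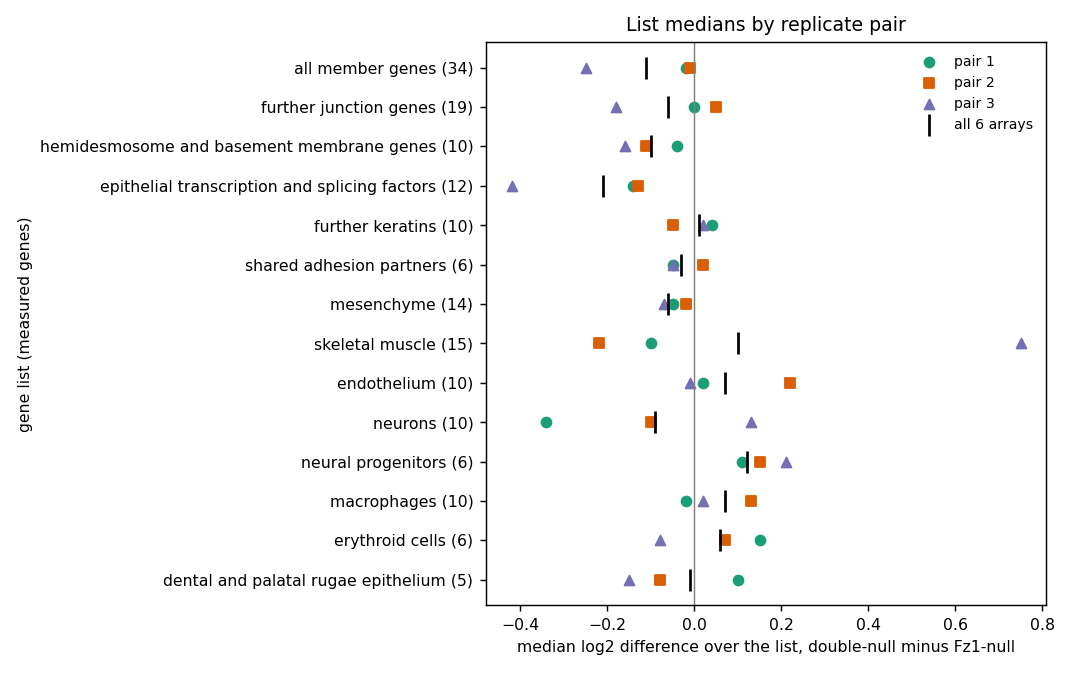
Median log2 difference over each gene list within each replicate pair (symbols) and over all 6 arrays (black tick), double-null minus Fz1-null, with the number of measured genes in brackets. In pair 3 the member genes lie at -0.25 and epithelial transcription and splicing factors at -0.42, beside skeletal muscle at 0.75.

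Markers of other cell types in the palate were measured beside these. Of 15 skeletal muscle markers 15 lay higher, with a median of 0.10 and pair medians of -0.10, -0.22 and 0.75. The median turned to -0.14 without the pair numbered 3 and to -0.10 without double-null sample 3 alone. In the pair numbered 2 all 15 were lower. Actc1, the cardiac actin of embryonic muscle, read 11.10, 11.09 and 12.13 in double-null samples, against 11.31, 11.32 and 11.38 in Fz1-null samples. Acta1, the skeletal actin, read 9.36, 9.76 and 10.89 in double-null samples, against 9.72, 9.99 and 10.04 in Fz1-null samples. Basal keratins had medians of 0.14, -0.34 and -0.75 in pairs 1 to 3, beside -0.10, -0.22 and 0.75 for muscle markers. The part of muscle transcripts in the epithelial differences was not tested.

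Of the mesenchymal markers, the bulk of the tissue, 12 of 14 lay lower and 2 higher, beside 30 of 34 members and 54.3% of all genes lower. These markers had a median of -0.06 and pair medians of -0.05, -0.02 and -0.07, and -0.02 without the pair numbered 3. Their summed level was 15.81 to 15.97 in double-null and 15.89 to 16.02 in Fz1-null samples on the log2 scale, and Vim, the mesenchymal intermediate filament gene, differed by -0.10 (SE 0.07). Endothelial markers had pair medians of 0.02, 0.22 and -0.01, neuronal markers of -0.34, -0.10 and 0.13, macrophage markers of -0.02, 0.13 and 0.02, neural progenitor markers of 0.11, 0.15 and 0.21, and erythroid markers of 0.15, 0.07 and -0.08. Without the pair numbered 3 the medians of these 5 lists were 0.14, -0.20, 0.07, 0.13 and 0.14. In the same order, 1 of 10, 8 of 10, 1 of 10, 1 of 6 and 1 of 6 markers lay lower. Their part in the epithelial differences was not tested either. The summed level of the 34 members was 13.81, 14.10 and 13.68 in double-null samples, against 13.85, 14.12 and 14.04 in Fz1-null samples, so replicate 2 was the highest in both genotypes. Markers of tooth germs and palatal rugae had a median of -0.01 (0.07 without the pair numbered 3), with Shh, a signal made by rugae and tooth epithelium, at -0.004 (SE 0.20) and Sostdc1, a secreted antagonist made in oral epithelium, at -0.37 (SE 0.17).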

How the data were processed

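Samples were grouped by the genotype label. The authors made the log2 values with RMA, per the submitters' processing notes, and deposited 1 value per probe set and array (range 2.83 to 14.7, array medians 7.22 to 7.27). RMA calls no probe set absent. For its version, the sources used here are silent. The authors' deposited table gives, per the file headers, an unadjusted p-value and the fold on a log2 and on a signed linear scale (a score below 0 where it runs the other way). These folds run Fz1-null over double-null and match the group means (largest gap 4.93e-08), and 0 of 61 member probe sets had a deposited p-value under 0.05, beside 1.81% of all.

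From these values, limma 3.58.1 in R 4.3.3 (lmFit, eBayes, genotype only) was fitted to 45037 probe sets after 64 controls were left out. P-values were two-sided and adjusted over all of these by Benjamini-Hochberg. The exact permutation test of 3 against 3 arrays cannot go below 0.1. Gene names came from the platform annotation, updated by Entrez identifier to RefSeq symbols (GRCm38.p6): 34945 probe sets had 1 symbol, 932 several and 9160 were not listed. A gene was read by its probe set with the highest mean. Replicate numbers come from the labels, and deviations from group means correlated at 0.63, 0.44 and 0.63 within the pairs (-0.45 to -0.16 between different numbers). The deviations of a group cancel out for each probe set, so positive correlations within pairs bring negative ones between different numbers. The negative values therefore add no separate evidence. The pairing is read from the data by the correlations within pairs, and a fit with the replicate block was added. The fits were tested on simulated data with known changes and independent noise on each array. Those data held no replicate effect, so that test does not cover the pairing seen here.

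Values are given per array for the members that a rule on mean, p and difference picked in each role group, and otherwise where a profile is described (Cldn7, Ovol1 and the second Krt6a probe set). Members, lists, tests and rules were chosen with earlier results of these data known. Alternatives were the replicate block, a filter at the median mean, trended or robust eBayes, repeated quantile normalisation, centring, array weights, log2(value + 32), averaging all probe sets of a gene, and leaving out each array or pair.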

Additional observations from a re-analysis of the deposited data

How the results depend on the processing

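With limma, 0 member probe sets and 0 probe sets in all passed the adjusted p of 0.05 under each alternative without the block, including each left-out array. Adding the replicate block gave 3 passing probe sets in all, each of them from Fzd2, and leaving out pairs 1, 2 and 3 in turn gave 93, 3 and 3 in all and 5, 0 and 0 members. The replicate block changed no other call. List medians ranged with left-out arrays from -0.09 to -0.01 (shared adhesion partners), -0.07 to -0.00027 (mesenchyme) and 0.12 to 0.18 (neural progenitors). By the block without pair 3 they were -0.03 (hemidesmosome genes, -0.12 without the other pairs) and -0.02 (mesenchyme, down to -0.08). Tooth germ and rugae markers were at -0.19 with dim probe sets left out, and basal keratins at -0.22 with the mean of each gene's probe sets. With arrays left out, 6 of 21 list medians changed sign: simple keratins (-0.23 to 0.05), stratification keratins (-0.05 to 0.07), surface proteases (-0.21 to 0.01), further keratins (-0.02 to 0.04), skeletal muscle (-0.10 to 0.28) and neurons (-0.22 to 0.09). With pairs left out 7 of 21 did: stratification keratins (-0.02 to 0.11), cadherins and claudins (-0.18 to 0.02), further junction genes (-0.09 to 0.01), skeletal muscle (-0.14 to 0.28), endothelium (-0.01 to 0.14), neurons (-0.20 to 0.03) and tooth germ and rugae markers (-0.06 to 0.07). Among the 34 members, signs turned for Krt4 with repeated quantile normalisation (-0.0014), centring (-0.0016) and array weights (-0.03), for Krt13 and Krt6a with the mean of their probe sets (0.02 and -0.04), and for Cldn6 with repeated quantile normalisation (0.01) and array weights (0.0033). The median of stratification keratins turned with that of Krt4, and that of further keratins turned to -0.00095 with dim probe sets left out and -0.02 with array weights. With arrays left out, 18 of 34 members crossed 0: Krt15 (-0.42 to 0.14), Krt7 (-0.09 to 0.16), Krt8 (-0.29 to 0.03), Krt19 (-0.28 to 0.07), Krt4 (-0.09 to 0.07), Krt13 (-0.14 to 0.10), Cdh3 (-0.20 to 0.05), Cldn3 (-0.22 to 0.10), Cldn4 (-0.14 to 0.01), Cldn6 (-0.13 to 0.06), Cldn7 (-0.31 to 0.07), Dsc2 (-0.22 to 0.02), Pkp1 (-0.18 to 0.05), Pkp3 (-0.09 to 0.02), Spint2 (-0.35 to 0.11), St14 (-0.19 to 0.03), Prss8 (-0.20 to 0.12) and Rab25 (-0.11 to 0.04). With pairs left out 12 did: Krt15 (-0.38 to 0.05), Krt19 (-0.24 to 0.02), Krt4 (-0.08 and -0.02 to 0.11), Krt13 (-0.21 to 0.01 and 0.09), Cdh3 (-0.18 to 0.02), Cldn3 (-0.18 to 0.0039 and 0.04), Cldn4 (-0.14 to 0.02), Cldn6 (-0.09 to 0.05), Pkp1 (-0.24 to 0.07), St14 (-0.14 to 0.05), Prss8 (-0.15 to 0.01) and Rab25 (-0.12 to 0.04). The cause was not tested.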
